A study of Mus musculus with 43 samples.

Results

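Granzymes and perforin, the proteins with which cytotoxic lymphocytes kill their targets, were followed in 43 arrays of CTLL-2, cytotoxic T lymphocytes of the mouse kept as a line that depends on interleukin-2 (IL-2). All probe sets that the platform annotation assigns to Gzma, Gzmb, Gzmc, Gzmd, Gzme, Gzmf, Gzmg, Gzmk, Gzmm or Prf1, alone or together with another granzyme, were taken. This gave 13 of the 45101 probe sets on each array, for 10 genes. Gzmd had 2 probe sets of its own, Prf1 had 2, a further probe set was assigned to Gzme and Gzmd together, and the other genes had 1 each.

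The cells had been kept in medium with IL-2, were washed, and spent 14 h without IL-2 in every group. Starved cells were taken at that point, called 0 h (5 arrays). Others then received human recombinant IL-2 at 100 U/mL for 0.5, 1 or 2 h, for 4, 6 or 8 h, for 10, 12 or 16 h, or for 24 h (4 arrays at 4 h and 3 at every other time). A last pair of groups stayed without IL-2 for another 4 h (4 arrays) or 8 h (3 arrays). The labels number the replicates but do not say whether they came from separate cultures, so the p-values measure the spread between these arrays, which may be technical. CTLL-2 is 1 cell line, and its RNA was measured in bulk, so that fewer cells carrying a transcript and less transcript per cell cannot be told apart.

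Cytotoxic T cells store granzymes, a family of serine proteases, in acidic granules bound to the proteoglycan serglycin. On contact with a target the granules fuse with the membrane, perforin (Prf1) forms pores, and the granzymes enter and cleave proteins of the target cell. Granzyme B cuts after aspartate and triggers apoptosis, granzymes A and K cut after basic residues, granzyme M cuts after methionine, and the genes Gzmc to Gzmg are a rodent expansion of the family whose substrates are less well known. IL-2 acts through its receptor, JAK kinases and STAT5, and is known for sustaining granzyme and perforin expression in activated T cells.

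The mouse genes lie on 3 chromosomes. In the RefSeq table of GRCm38.p6, Gzme, Gzmd, Gzmg, Gzmn, Gzmf, Gzmc and Gzmb follow each other in this order on chromosome 14, next to the gene of cathepsin G (Ctsg) and the mast cell proteases. Gzma and Gzmk lie on chromosome 13, and Gzmm and Prf1 on chromosome 10. RefSeq promoter windows were found for all 10 genes, and the 250 bases before the annotated start were compared by global alignment. The 10 pairs among Gzmc, Gzmd, Gzme, Gzmf and Gzmg shared 70.2% to 94.8% of aligned positions, with Gzmd and Gzme the closest at 94.8% and Gzmf and Gzmg next at 82.2%. The other 45 pairs shared 41.8% to 49.5%.

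Windows of 6 genes are shown because they cover the kinds of member described below: Gzmb, the near-identical Gzmd and Gzme, which also share probes on the array, Gzmg, Gzmk, the only gene called in all 4 comparisons that hold arrays left without IL-2, and Gzmm, whose signal lay near background. They are written 5′ to 3′ on the gene's strand in GRCm38.p6, and capitals mark matches to the motifs named after them.
Gzmb, chr14:56262335-56262584, minus strand: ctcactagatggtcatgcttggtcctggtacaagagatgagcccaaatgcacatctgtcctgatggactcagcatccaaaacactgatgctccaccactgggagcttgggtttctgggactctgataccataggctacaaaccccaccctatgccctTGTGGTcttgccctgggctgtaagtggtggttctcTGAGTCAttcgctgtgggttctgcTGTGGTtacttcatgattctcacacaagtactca
Gzmd, chr14:56132594-56132843, minus strand: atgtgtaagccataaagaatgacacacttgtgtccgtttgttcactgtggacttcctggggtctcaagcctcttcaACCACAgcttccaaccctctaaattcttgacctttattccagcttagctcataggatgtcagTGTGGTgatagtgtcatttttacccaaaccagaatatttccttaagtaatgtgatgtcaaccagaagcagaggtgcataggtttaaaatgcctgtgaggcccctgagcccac
Gzme, chr14:56120626-56120875, minus strand: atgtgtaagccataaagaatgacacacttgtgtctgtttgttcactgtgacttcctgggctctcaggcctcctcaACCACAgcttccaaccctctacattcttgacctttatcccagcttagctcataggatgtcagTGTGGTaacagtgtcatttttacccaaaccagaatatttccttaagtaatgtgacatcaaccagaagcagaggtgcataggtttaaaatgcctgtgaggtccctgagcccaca
Gzmg, chr14:56159580-56159829, minus strand: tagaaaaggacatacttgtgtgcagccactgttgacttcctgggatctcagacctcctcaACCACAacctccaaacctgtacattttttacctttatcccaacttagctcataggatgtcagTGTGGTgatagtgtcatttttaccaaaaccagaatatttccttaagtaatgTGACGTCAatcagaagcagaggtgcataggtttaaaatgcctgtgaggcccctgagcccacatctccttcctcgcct
Gzmk, chr13:113180966-113181215, minus strand: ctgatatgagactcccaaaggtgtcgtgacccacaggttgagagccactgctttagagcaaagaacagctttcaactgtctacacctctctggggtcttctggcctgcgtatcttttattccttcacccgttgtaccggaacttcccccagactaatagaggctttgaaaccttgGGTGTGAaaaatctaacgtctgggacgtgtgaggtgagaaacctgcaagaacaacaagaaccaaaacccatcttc
Gzmm, chr10:79688770-79689019, plus strand: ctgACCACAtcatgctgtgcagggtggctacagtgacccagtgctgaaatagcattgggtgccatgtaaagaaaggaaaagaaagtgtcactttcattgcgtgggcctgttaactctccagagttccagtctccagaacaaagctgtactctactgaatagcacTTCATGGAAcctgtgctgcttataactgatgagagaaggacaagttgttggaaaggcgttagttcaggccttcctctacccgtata
The letters searched on both strands were TTCNNNGAA (bound by STAT factors), TGANTCA (AP-1), TGTGGT (RUNX), GGTGTGA (T-box), TGACGTCA (CREB and ATF) and CACGTG (E-box). TGTGGT or its reverse complement stood in the windows of 9 of the 10 genes, all but Gzmk, against 14.0% of 32851 RefSeq windows of the same length. The windows of Gzmc to Gzmg each held both forms and shared 70.2% to 94.8% of aligned positions, so they are not separate cases. Gzmm had 2 windows, so a count of genes is not set against like windows. TGACGTCA stood in the windows of Gzmc, Gzmf and Gzmg, all from that similar set, against 1.5% of windows. TTCNNNGAA was matched only before Gzmm (7.0% of windows), TGANTCA only before Gzmb (6.7%), and GGTGTGA before Gzmk and in a second window of Gzmm (3.3%), which also held CACGTG (6.0%). These matches are letters in the sequence and were not tested as binding sites.

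The labelled identity of the cells was checked on marker genes. Cd3d, Cd3g and Thy1 had median signals of 25029.5, 21632.8 and 26552.9 over the 43 arrays, and Cd8b1 had 4877.8. Cd4 and Cd2 had medians of 14.3 and 10.4 and were below the array median on all 43 arrays. The NK cell markers Ncr1, Klrk1 and Klrd1 had medians of 52.8, 40.3 and 25.4. No B cell or fibroblast marker was above the array median on all arrays, 1 of 5 macrophage markers was (Cd68, median 959.9), and 2 of 6 mast cell markers were (Kit at 2411.4 and Cpa3 at 421.2, with Mcpt4, Fcer1a, Ms4a2 and Tpsb2 at 23.4 to 32.3). The macrophage markers Cd14, Csf1r, Adgre1 and Lyz2 were above the array median on 42, 40, 32 and 6 arrays, with medians of 254.4, 182.4, 84.1 and 39.9. The fibroblast marker Col1a2 (median 118.5) was above it on 39 arrays, and the other fibroblast markers on 4 to 19. The array medians lay between 46.1 and 118.6, and the 2% trimmed mean lay between 500.003 and 500.004 on every array, so that all signals are relative to the same trimmed mean and say nothing of the RNA per cell. All 7 arrays without IL-2 were scanned in a later year than the other 36, on 2 of the 8 scan days. Scan year and the lack of IL-2 at 4 h and 8 h therefore cannot be told apart.

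Signals of 11 of the 13 probe sets were among the brightest on every array. They lay between 15310.7 and 92367.9 on all 43 arrays, and in each case at least 99.13% of the probe sets on that array had a lower signal. Brightness depends on the probes as well as on the transcript, so that the probe sets are not compared with each other here. Gzma ranged from 29134.1 to 80768.1 with a median of 42740.8, Gzmb from 26817.4 to 64732.5 with a median of 37321.3, and the Prf1 probe set 1451862_a_at from 25073.4 to 58136.5 with a median of 34561.5. Among the genes of the chromosome 14 cluster the medians were 33376.6 for Gzmc, 32253.5 for Gzme, 42493.0 for Gzmf and 46735.9 for Gzmg, and for Gzmd 38239.0 with probe set 1420343_at and 38508.3 with 1420344_x_at. The probe set of Gzme and Gzmd together had a median of 35367.3, and Gzmk had 24480.7. From the lowest to the highest of the 43 arrays the 11 probe sets spanned 2.29-fold (Gzmc) to 3.19-fold (Gzmk and the shared probe set). The probe sets 1420344_x_at, 1450171_x_at (Gzme) and the shared one can bind transcripts of more than 1 of these near-identical genes, and how much each gene contributes to them is uncertain.

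**Figure D1:**
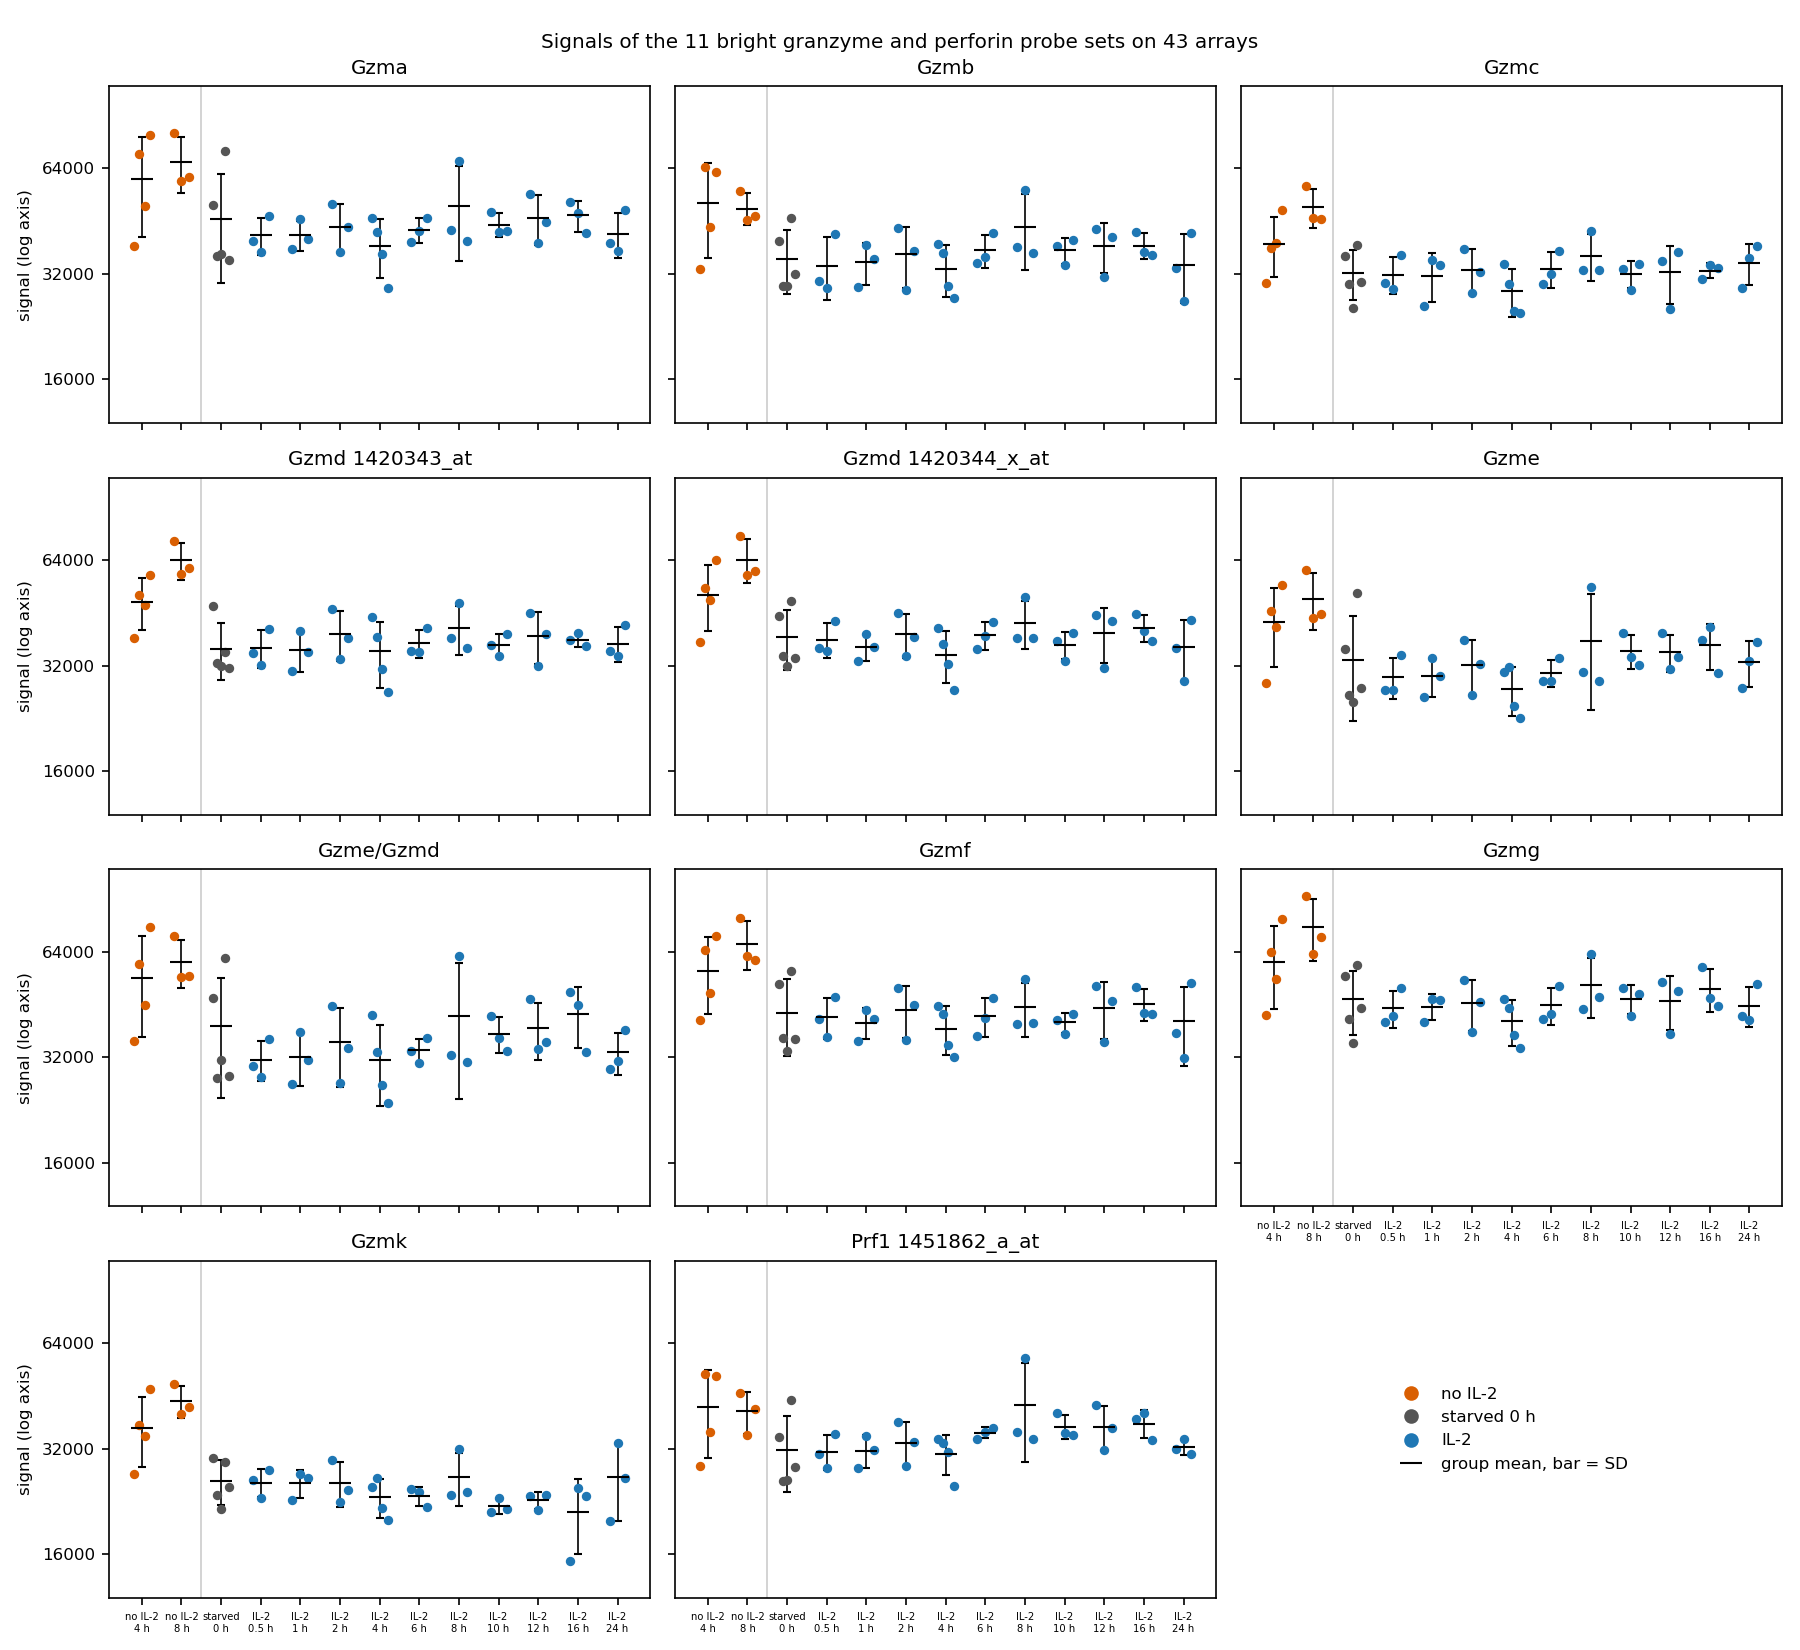
Signal on a log axis of the 11 bright granzyme and perforin probe sets, 1 point per array, with the group mean (dash) and SD (bar); groups without IL-2, starved at 0 h and with IL-2 are coloured. Points of the 10 IL-2 times overlap those of starved cells in all 11 panels, and the highest points are mostly those without IL-2.

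The remaining 2 probe sets were dim. Gzmm lay between 14.7 and 317.1 with a median of 85.2, and exceeded its array's median on 37 of 43 arrays. The second Prf1 probe set, 1450335_at, lay between 8.7 and 148.5 with a median of 50.8, and exceeded the array median on 12 of 43. The 2 Prf1 probe sets thus disagreed on whether the transcript was detected, and the brighter one is taken for Prf1 below. Replicate arrays differed by several-fold at this brightness. At IL-2 0.5 h Gzmm was 175.0, 215.8 and 14.7, against 85.2, 105.4, 25.6, 77.6 and 72.6 in starved cells, so that the groups overlapped on both sides. Over the 10 IL-2 times Gzmm, a granzyme best known from NK cells, differed from starved cells by -0.10 to 0.90 on the log2 scale and Prf1 1450335_at by -0.87 to 0.20, with no difference past the test.

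**Figure D2:**
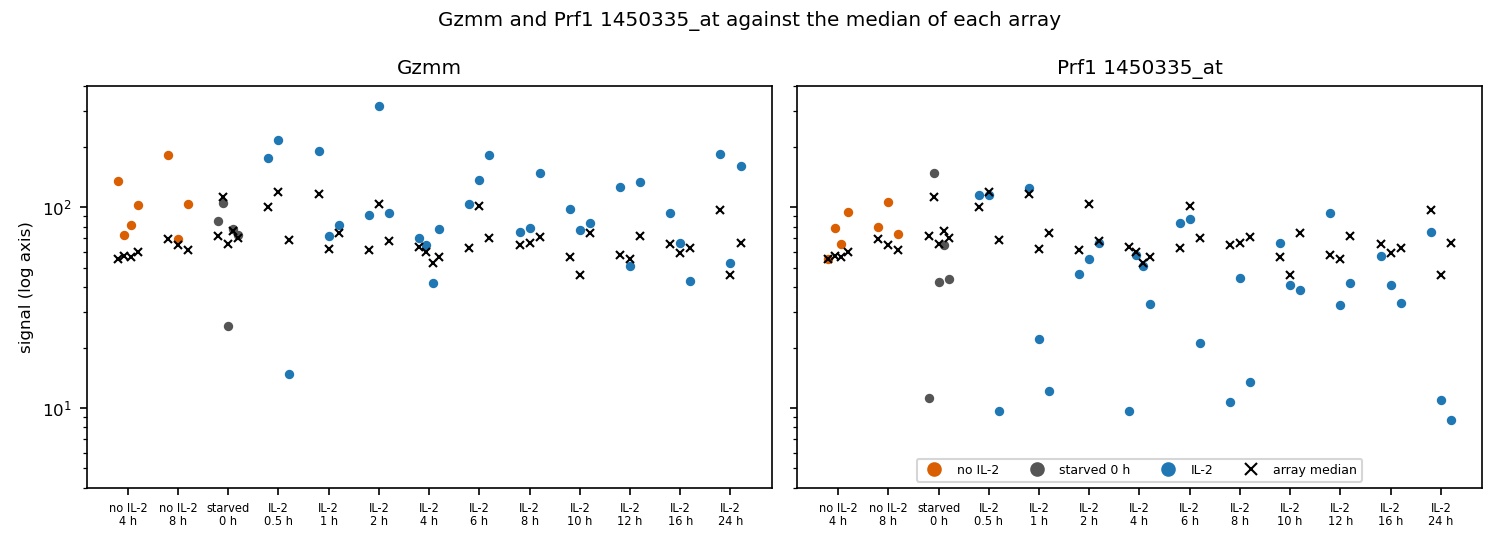
Signal on a log axis of Gzmm and the Prf1 probe set 1450335_at, 1 point per array, with the median of each array as a cross. Gzmm was above the array median on 37 of 43 arrays and Prf1 1450335_at on 12 of 43.

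The first question of the time course was whether returning IL-2 to starved cells changed these genes. No granzyme or perforin probe set differed from starved cells at any of the 10 times at an adjusted p under 0.05 (limma on log2(signal + 16), Benjamini-Hochberg over 32184 probe sets). In order of time, the share of all tested probe sets called in either direction was 0.134%, 0.519%, 2.81%, 15.1%, 16.8%, 19.1%, 20%, 19.4%, 15.4% and 8.79%. An F test over starved cells and all 10 times called 26.8% of probe sets and none of the 13, whose adjusted p lay between 0.609 and 0.991 (limma). Over the 11 bright probe sets and 10 times, 110 differences ranged from -0.31 to 0.41 on the log2 scale and their 95% intervals reached from -0.75 to 0.79. Of these 110 differences, 1 had an unadjusted p under 0.05. None of the 13 was in the authors' deposited table of 3838 probe sets that changed over the time course.

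Granzyme B, the best studied of the family, had 38153.2, 55650.6 and 36610.8 on the 3 arrays at IL-2 8 h, against 39729.3, 29579.8, 29490.0, 46205.0 and 31941.9 in starved cells. The 8 h arrays overlapped the starved ones, with replicate 2 standing above both groups. The difference was 0.29 ± 0.20 on the log2 scale (SE, adjusted p = 0.359, limma), with a 95% interval from -0.11 to 0.70. At the other 9 times Gzmb differed from starved cells by between -0.09 (4 h) and 0.14 (16 h).

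Gzma, a trypsin-like granzyme, had 42740.8, 67174.1 and 39806.2 at IL-2 8 h, against 50493.0, 36007.9, 36425.2, 71741.5 and 35143.5 in starved cells. Both groups had 1 array well above the rest, replicate 2 at 8 h and replicate 4 of the starved cells, and they overlapped throughout. The difference was 0.14 ± 0.21 on the log2 scale (SE, adjusted p = 0.744, limma).

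Perforin made the largest difference of the bright probe sets at any IL-2 time. Prf1 1451862_a_at had 35770.8, 58136.5 and 34190.6 at IL-2 8 h, against 34561.5, 25892.3, 26082.9, 44109.7 and 28285.4 in starved cells. The groups overlapped, since starved replicate 4 lay above the 2 lower arrays at 8 h. The difference was 0.41 ± 0.19 on the log2 scale (SE, unadjusted p = 0.0329, adjusted p = 0.125, limma). It was 0.17 without replicate 2 of IL-2 8 h and 0.54, with an adjusted p of 0.034 in limma, without replicate 4 of the starved cells. Around that time perforin differed by 0.19 (6 h), 0.25 (10 h), 0.24 (12 h) and 0.27 (16 h), and at the end by 0.05 (24 h), none of them past the test.

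Gzmk, the other trypsin-like granzyme, had its lowest difference at IL-2 16 h. Its signals there were 15310.7, 24694.4 and 23400.1, against 30146.7, 23619.0, 21490.3, 29343.4 and 24787.6 in starved cells, which leaves replicate 1 below all others. The difference of -0.31 ± 0.17 on the log2 scale (SE, adjusted p = 0.247, limma) was -0.09 without replicate 1. On that array the GAPDH 3′ to 5′ ratio, a measure of how intact the labelled RNA was, stood at 1.41, against 0.777 to 0.968 on the other 42 arrays. Its part in the low value was not tested.

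The genes of the chromosome 14 cluster other than Gzmb stayed within the same bounds. Across the 10 IL-2 times Gzmc differed from starved cells by -0.17 to 0.17 on the log2 scale, Gzmd 1420343_at by -0.03 to 0.20, Gzme by -0.24 to 0.18, Gzmf by -0.13 to 0.11 and Gzmg by -0.19 to 0.14. In each case the lowest difference was at 4 h. Between late times, no probe set of the array was called in IL-2 24 h against IL-2 12 h (0%), and the bright granzymes and perforin differed by -0.22 to 0.19.

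Scan days cut across the IL-2 times, so the comparison was also made within them. On scan day 3, which held 2 starved arrays and arrays of every IL-2 time, the median difference of the 11 bright probe sets from starved cells was, in order of time, 0.38, 0.26, 0.39, -0.02, 0.25, 0.21, 0.29, 0.36, 0.37 and 0.40. Over all arrays the medians at these times lay between -0.16 and 0.15. On scan day 2, with 1 starved array, the medians ran from -0.03 (both 1 and 2 h) to 0.14 (6 h). On scan day 1 the only median was -0.13 at 4 h, and on scan day 4 the medians were 0.10 at 8 h and -0.31 at 16 h, each from 1 array against 1. In the comparisons of the IL-2 times with starved cells, no probe set of the 13 was called with scan day as a block or on scan day 3 alone.

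The second question was how these genes stood in cells left without IL-2. At 8 h without IL-2, 6 of the 13 probe sets rose against starved cells (2.26% of all tested probe sets were called higher): Gzmc, both Gzmd probe sets, Gzmf, Gzmg and Gzmk. For these 6, all arrays without IL-2 lay above all starved arrays, as they did for 7.12% of all tested probe sets. At 4 h without IL-2, 1 of 13 rose against starved cells, Gzmk (2.59% were called higher).

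Gzmd made the largest of these differences. Probe set 1420343_at had 72548.0, 58297.3 and 60753.3 after 8 h without IL-2, against 47392.8, 32489.8, 31955.9, 35080.2 and 31544.4 in starved cells. No array overlapped, and the difference was 0.85 ± 0.17 on the log2 scale (SE, adjusted p = 0.00143, limma). The second Gzmd probe set differed by 0.75 ± 0.17 (adjusted p = 0.00697, limma).

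Gzmk had 48916.7, 40243.9 and 41960.1 after 8 h without IL-2, against the starved values given above. All 3 lay above the highest starved array, at 30146.7, and the difference was 0.76 ± 0.17 on the log2 scale (SE, adjusted p = 0.00516, limma). After 4 h without IL-2 its signals were 27140.3, 37324.4, 34736.9 and 47359.1, of which replicate 1 fell within the starved range. That difference was 0.49 ± 0.16 (adjusted p = 0.0492, limma).

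Gzmg, at 92367.9, 62922.2 and 70577.6 after 8 h without IL-2, against 54612.1, 41041.4, 35067.4, 58694.4 and 44236.8 in starved cells, differed by 0.69 ± 0.19 (adjusted p = 0.0194, limma). Gzmf differed by 0.68 ± 0.19 and Gzmc by 0.63 ± 0.17 (adjusted p = 0.0278 and 0.0175, limma). Gzma, Gzmb, Gzme, the shared probe set and Prf1 1451862_a_at had differences of 0.58, 0.49, 0.61, 0.67 and 0.39 with adjusted p between 0.0813 and 0.252, and their arrays overlapped those of starved cells.

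Cells with IL-2 were also set against cells without it at the same time. At 4 h, 8 of 13 probe sets were lower in cells with IL-2 than in cells without it (7.21% of all tested were called lower): Gzma, Gzmb, both of Gzmd, Gzme, the shared probe set, Gzmg and Gzmk. Their differences ran from -0.48 to -0.75 on the log2 scale. At 8 h, 4 of 13 were lower (11.1% were called lower): both of Gzmd, Gzmf and Gzmk, with differences from -0.60 to -0.73. Against starved cells none of the 13 was called at IL-2 4 h or 8 h, where the median differences of the 11 bright ones were -0.16 and 0.15. All IL-2 arrays lay below all arrays without IL-2 for 1 probe set at 4 h (8.5% of all tested) and for 7 at 8 h (23% of all tested).

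Granzyme B had 38869.4, 36678.3, 29481.6 and 27342.5 at IL-2 4 h, against 32987.7, 64732.5, 43454.6 and 62416.7 without IL-2. Replicate 1 without IL-2 lay among the IL-2 arrays, and the other 3 lay above them all. The difference was -0.58 ± 0.19 (SE, adjusted p = 0.0363, limma). At 8 h, with 55037.4, 45531.0 and 46922.5 on the arrays without IL-2, the IL-2 arrays given above overlapped them and the difference was -0.20 ± 0.22 (adjusted p = 0.611, limma).

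Gzmk was the only probe set whose 4 h groups did not overlap. It had 24895.8, 26385.3, 21647.3 and 20038.7 at IL-2 4 h, below the 4 values without IL-2, with a difference of -0.64 ± 0.17 (SE, adjusted p = 0.00742, limma). At IL-2 8 h it had 23609.3, 31899.0 and 24093.6, again below all 3 arrays without IL-2, with a difference of -0.73 ± 0.19 (adjusted p = 0.00521, limma). Perforin (1451862_a_at) differed by -0.40 at 4 h and by 0.03 at 8 h, and passed the test at neither. These 4 comparisons share arrays with each other and with the time course, so their values are not independent.

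**Figure D3:**
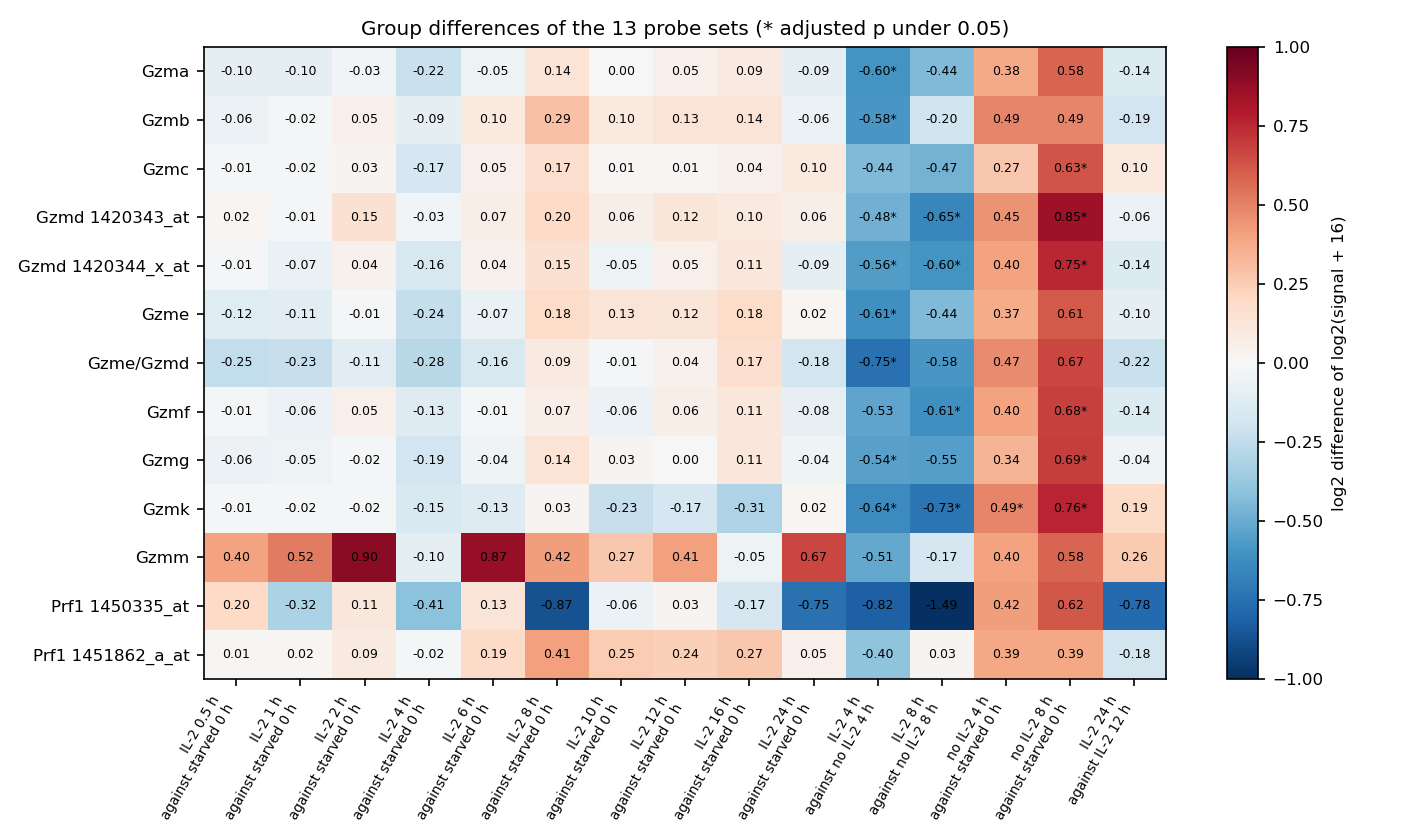
Log2 difference of each of the 13 probe sets (rows) in the 15 comparisons (columns), with a star where the adjusted p was under 0.05 and colours that saturate at differences of 1. Stars appear only in the 4 columns that hold arrays without IL-2, where differences of called probe sets run from -0.75 to 0.85.

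The brightest of the other probe sets also differed in these comparisons. Among the 100 brightest probe sets that are neither granzymes, perforin nor controls, 73 were called higher after 8 h without IL-2 against starved cells and 16 after 4 h, with mean differences of 0.66 and 0.38. In cells with IL-2 against cells without it, 64 of the 100 were called lower at 4 h and 41 at 8 h, with mean differences of -0.53 and -0.52. The median differences of the 11 bright granzyme and perforin probe sets in the same 4 comparisons, in the same order, were 0.67, 0.40, -0.56 and -0.55. When each array was centred on those 100 probe sets, an alternative chosen after the data were seen, no granzyme or perforin probe set was called in 3 of the 4 comparisons. That centring subtracts the mean differences just given from every probe set. In IL-2 8 h against no IL-2 8 h it called 1, perforin (1451862_a_at), which was then higher in cells with IL-2 by 0.54 (adjusted p = 0.00203, limma), against 0.03 without the centring. Under that centring 18.3% of all tested probe sets were called higher and 2.98% lower in this comparison, against 8.7% and 11.1% without it. Quantile normalisation also called this perforin probe set higher, by 0.51 (adjusted p = 0.000338, limma). Under the centring on the 100 probe sets, Gzmd 1420343_at was 0.19 above starved cells after 8 h without IL-2 (adjusted p = 0.182, limma). Gzmk was 0.10 above them under the same centring (adjusted p = 0.54, limma).

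Array by array, the mean log2 signal of the 11 bright granzyme and perforin probe sets moved with that of the 100 others. Both sets were chosen as bright, so that their similar level follows in part from the choice. The first minus the second lay between -0.03 and 0.13 on 42 arrays and was 0.36 on replicate 1 of IL-2 16 h, the array with the GAPDH ratio of 1.41. In 12 of the 13 groups the array with the highest granzyme and perforin signal was also the one with the highest signal of the 100 others. The actin 3′ to 5′ ratio lay between 1.18 and 1.53 on the arrays without IL-2 and between 1.07 and 1.36 on the other 36. The part of scan year and of these ratios in the differences was not tested.

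**Figure D4:**
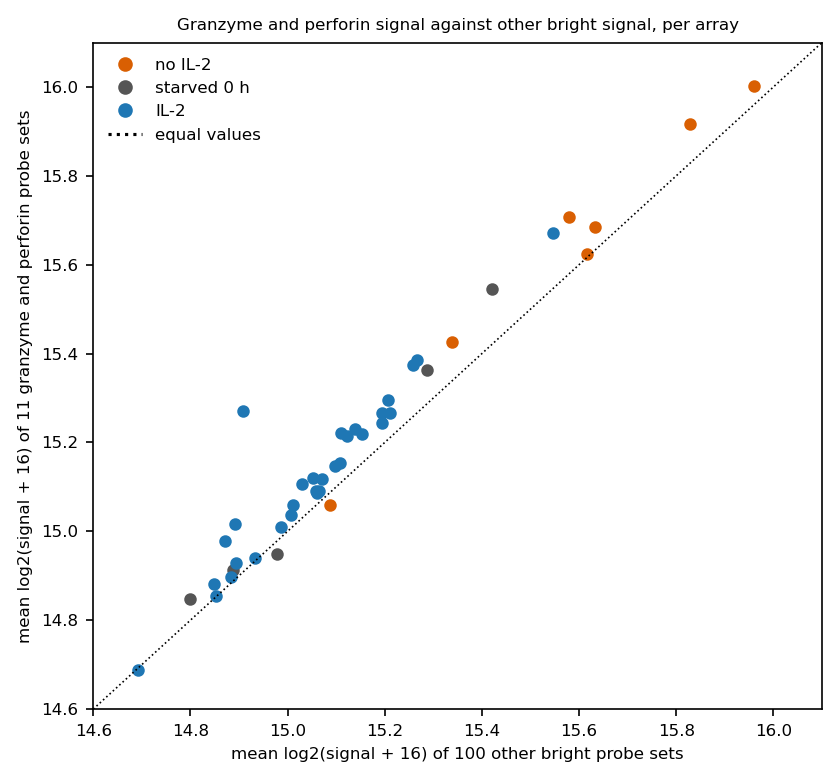
Mean log2(signal + 16) of the 11 bright granzyme and perforin probe sets against that of the 100 brightest other probe sets, 1 point per array, with the line of equal values. Points run along the line, with 42 of 43 arrays between 0.03 below and 0.13 above it and 1 array 0.36 above it. Both sets were chosen as bright, so that their similar level follows in part from the choice.

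One array without IL-2 stood apart. Over 418 probe sets whose mean at IL-2 8 h exceeded that of no IL-2 8 h by 4-fold or more, replicate 2 of no IL-2 4 h lay 0.69 of the way from its 3 group mates to the IL-2 4 h mean, while the other 3 lay at -0.21 to -0.37. Without it, 2 rather than 8 granzyme and perforin probe sets were called lower in IL-2 4 h against no IL-2 4 h, and none was higher in no IL-2 4 h against starved cells. Several other arrays moved the counts as much. In IL-2 4 h against no IL-2 4 h the count was 1 without replicate 3 or without replicate 4 of IL-2, 4 without replicate 3 and 0 without replicate 4 of no IL-2. In IL-2 8 h against no IL-2 8 h, leaving out IL-2 replicates 1, 2 and 3 in turn gave 2, 8 and 1, and leaving out replicate 1 of no IL-2 gave 1. After 8 h without IL-2 against starved cells, dropping no IL-2 replicate 1 or 3 gave 1 or 4, and with starved replicate 3 or 4 left out it was 3 or 9. In no IL-2 4 h against starved cells the count became 5 when no IL-2 replicate 1 was dropped, 0 when replicate 3 or 4 was, 2 without starved replicate 1 or 4, and 0 without any other starved array.

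The mean level of each bright probe set was ordered over the 13 groups. For 10 of the 11, the 2 groups without IL-2 stood highest, and for perforin IL-2 8 h stood just above them. Neighbours in this order differed by less than the larger of their SDs except at the top: Gzmc, both Gzmd probe sets and Gzmk had a step larger than that, into or within the groups without IL-2. Since no granzyme or perforin probe set was called over the time course, no gene was named as having a similar pattern.

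Genes that act with or beside the granzymes were counted in 7 lists written from general knowledge, each read against the share of all genes called. Of 8 known IL-2 response genes, 7 rose at IL-2 8 h against starved cells and none fell (23.6% of 14534 genes were called in either direction, 1 probe set per gene), with a median difference of 2.45 against -0.14 over all genes. Socs1, an inhibitor of cytokine signalling, had 2462.3, 2999.4 and 2040.7 at IL-2 8 h, against 92.2, 187.7, 154.8, 223.5 and 95.8 in starved cells, a difference of 3.97 ± 0.54 (SE, adjusted p = 1.63e-06, limma). Myc rose by 3.81 ± 0.56 and Cish by 3.44 ± 0.45. Over the 10 times 4 to 7 of the 8 rose. After 4 h without IL-2, 4 of the 8 (Cish, Socs1, Pim1 and Myc) were also called higher than in starved cells (7.51% of genes were called in either direction), with a median difference of 1.15 over the list. Cish had 1675.5, 13107.7, 859.1 and 2067.0 on the 4 arrays of that group, and replicate 2, the array that stood apart above, was the highest of the 4 for all 8 genes. Without replicate 2, 3 of the 8 were called higher and the median was 0.57.

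Of 10 genes of the granule and of granzyme handling, 1 rose and none fell at IL-2 8 h, with a median of -0.19. That share, 1 of 10, is below the 23.6% of all genes. Nkg7, a granule membrane protein, was the one, at 0.50 ± 0.17 (adjusted p = 0.0284, limma), and it kept its call in 9 of 17 alternatives. Srgn, which encodes serglycin, differed by 0.26 and Ctsc, the protease that activates pro-granzymes, by -0.23, and neither passed. Of 12 genes of granule docking and release, none rose and 3 fell at IL-2 8 h, with a median of -0.57. That share is close to that of all genes. Sytl2, a Rab27 effector that tethers granules, had 3053.6, 3836.0 and 2900.0 at IL-2 8 h, against 11617.5, 9458.7, 9023.2, 8270.1 and 9534.0 in starved cells. The groups did not overlap, and the difference was -1.55 ± 0.22 (SE, adjusted p = 2.62e-06, limma). Lyst and Ap3b1, both needed to form or sort lysosome-related granules, fell by 1.45 and 1.18 on the log2 scale.

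Of 5 serpins on the list, 2 fell at IL-2 8 h and none rose (23.6% of genes were called in either direction), with a median of -0.88. Serpinb1a, an inhibitor of neutrophil serine proteases and of granzyme H in humans, had 8.6, 176.1 and 9.4 at IL-2 8 h, against 760.3, 1125.2, 837.6, 534.6 and 303.3 in starved cells, a difference of -3.76 ± 0.69 (SE, adjusted p = 0.00012, limma). Replicates 1 and 3 at 8 h lay below the array median, so that the size of the difference depends on the pseudocount and other settings. It ran from -4.64 to -2.73 over 17 alternatives, past the test in each. Serpinb6b differed by -1.59 ± 0.50 (adjusted p = 0.0209, limma), also with replicates 1 and 3 at 8 h below the array median. Its difference ran from -2.01 to -1.17 over 17 alternatives, and the call was kept in 4 of 8 fits that left out 1 array.

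Other killing genes moved in both directions. Of 6 ligands and cytokines, 3 rose and 3 fell at IL-2 8 h (23.6% of genes were called in either direction), with a median of 0.58. Of those that fell, Tnfsf10 lay near background, with a median signal of 42.2 and above the array median on 5 of 43 arrays. Lta, which encodes lymphotoxin alpha, had 10088.7, 13184.4 and 10113.1 at IL-2 8 h, against 387.0, 313.4, 343.4, 391.2 and 376.7 in starved cells, a difference of 4.87 ± 0.54 (SE, adjusted p = 1.03e-07, limma). Ltb, which encodes lymphotoxin beta, had 28.0, 72.1 and 40.8 at IL-2 8 h, against 542.2, 378.6, 283.2, 284.0 and 115.5 in starved cells, with replicates 1 and 3 at 8 h below the array median. Its difference of -2.33 ran from -2.82 to -1.71 over 16 alternatives and lost its call on scan day 3 alone. Tnf rose by 2.56 ± 0.60 and Fasl, the ligand of the death receptor Fas, fell by 1.25 on the log2 scale.

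Of 16 transcription factors known in cytotoxic cells, 4 rose and 4 fell at IL-2 8 h (23.6% of genes were called in either direction), with a median of -0.04. Eomes rose by 1.09, Irf4 by 2.20 ± 0.60 and Id3 by 2.04 ± 0.67, whereas Tbx21 (T-bet) fell by 1.58 and Bcl6 fell by 1.94. Id3 had 169.9, 275.4 and 148.8 at IL-2 8 h, against 34.4, 39.0, 50.4, 65.5 and 6.1 in starved cells. Its starved values all lay below the array median, so that the size of the difference depends on the pseudocount and other settings. It ran from 1.34 to 2.58 over 17 alternatives, and the call was kept in 4 of 8 fits that left out 1 array. Runx3 differed by -0.10 and Prdm1 (Blimp-1) by -0.35, and neither passed the test.

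Neighbours of the chromosome 14 granzymes were counted in the same comparisons. Of the 4 tested neighbours (Gzmn, Ctsg, Cma1 and Mcpt8), none was called at any IL-2 time, and 2 fell after 8 h without IL-2 against starved cells (5.46% of genes were called in either direction), with a median of -1.30 against -0.05 over all genes. Ctsg had 754.4, 680.2 and 671.9 after 8 h without IL-2, against 2061.8, 3202.8, 3700.2, 3181.6 and 5423.8 in starved cells, a difference of -2.23 ± 0.42 (SE, adjusted p = 0.00106, limma). The groups did not overlap, and the fall held under all 15 alternatives in which it could be fitted. Mcpt8 fell by 1.28 on the log2 scale and kept its call in 10 of 15 alternatives, the replicate block being among those that ended it. Cma1 had a difference of -0.31 that did not pass (adjusted p = 0.735, limma). Gzmn, the granzyme between Gzmg and Gzmf, had 358.5, 382.8 and 422.5 after 8 h without IL-2, against 797.5, 1390.9, 735.7, 671.5 and 1703.4 in starved cells, and its difference of -1.32 did not pass (adjusted p = 0.153, limma). In IL-2 8 h against no IL-2 8 h, Ctsg was higher by 2.37 ± 0.47 and Gzmn by 1.72 ± 0.60 (23.2% of genes called in either direction). The Gzmn call was lost without any 1 of 5 of the 6 arrays, all but replicate 2 of IL-2. The difference of Gzmg, between Gzmd and Gzmn on the chromosome, was -0.55. The difference between neighbours and granzymes was not tested. After 4 h without IL-2, Gzmn, Ctsg and Mcpt8 fell against starved cells (7.51% of genes were called in either direction), with a median of -1.65 over the 4. That count of 3 became 2 without replicate 1, 2 or 4 of no IL-2 4 h and stayed at 3 without replicate 3.

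Mast cell markers were set beside these neighbours, since Cma1 encodes a mast cell chymase. Mcpt4, Fcer1a, Ms4a2 and Tpsb2 lay near background, as given above. Over the 4 tested markers the median difference was -0.89 after 8 h and -1.06 after 4 h without IL-2 against starved cells, with 1 of 4, Kit, called lower each time. Kit averaged 792.0 after 8 h without IL-2, against 3242.0 in starved cells, and fell against them (adjusted p = 0.0131, limma); after 4 h its difference was -1.92. In IL-2 8 h against no IL-2 8 h the median was 0.44, and Kit was higher by 1.97. The part of these markers in the differences of the neighbours was not tested.

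In IL-2 8 h against no IL-2 8 h, 23.2% of genes were called in either direction. None of the 10 granule handling genes rose and 3 fell (Ctsw, M6pr and Lamp1, with differences of -0.93, -0.84 and -0.56). None of 12 release genes rose and 5 fell, and 2 of 5 serpins fell. Ctsw, M6pr and Lamp1 lost their call in this comparison under both centrings. With bright centring 2 handling genes rose and none fell, 1 release gene rose and 1 fell, and 1 serpin fell. Of the 6 ligands and cytokines 3 rose and 2 fell, of the 16 transcription factors 4 rose and 3 fell, and 6 of 8 IL-2 response genes rose. After 8 h without IL-2 against starved cells, M6pr, Srgn and Nkg7 were called higher among the handling genes, none of the release, serpin, ligand or IL-2 response genes was called, and 1 transcription factor, Stat5a, fell. Stat5a kept its call in 11 of 15 alternatives. M6pr, Srgn and Nkg7 lost their call against starved cells under quantile normalisation and under both centrings.

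**Figure D5:**
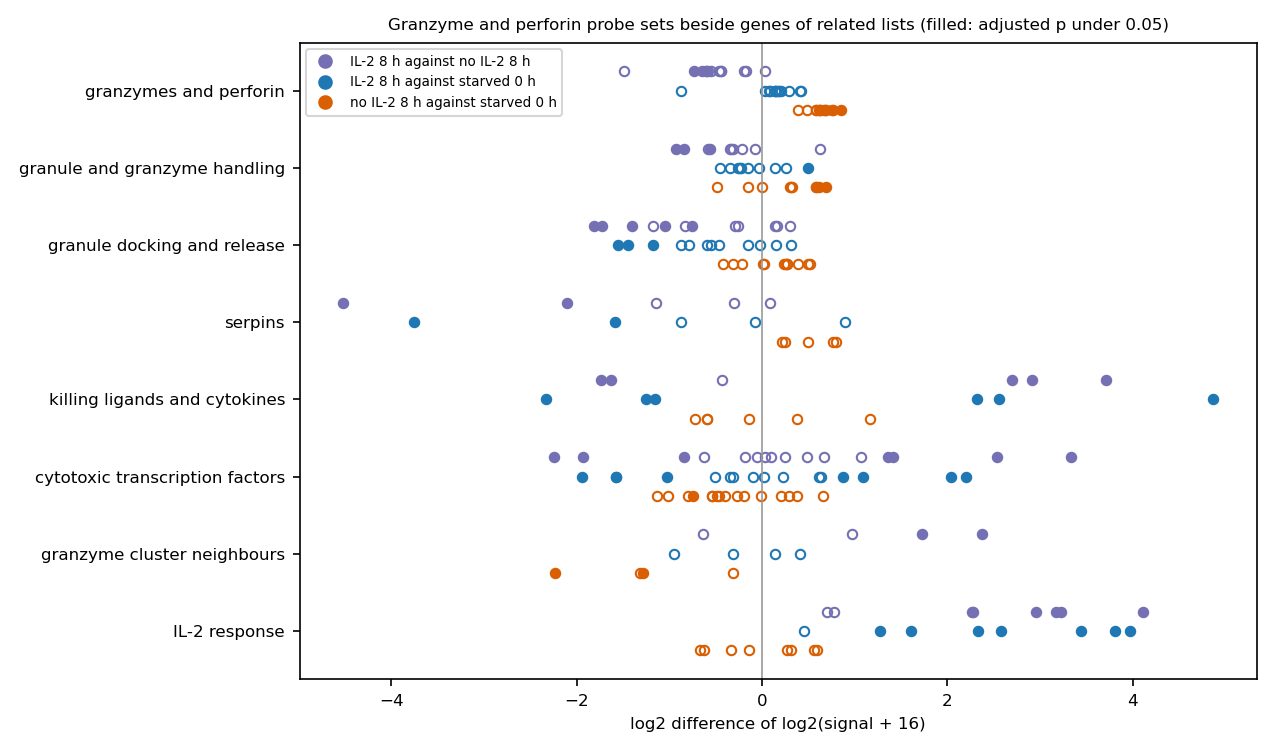
Log2 differences of the 13 granzyme and perforin probe sets and of the genes of 7 related lists (rows) in 3 comparisons (colours), 1 point per probe set or gene, filled where the adjusted p was under 0.05. At IL-2 8 h against starved cells, no granzyme or perforin point is filled, whereas 7 of 8 IL-2 response genes are.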

How the data were processed

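The 43 arrays are Affymetrix Mouse Genome 430 2.0, which hold biotin-labelled cRNA of CTLL-2 cells. Deposited values are linear signal intensities, 1 for each probe set and array, which the authors computed in GCOS 1.3, per the submitters' processing notes. The authors' deposited table of changed probe sets, with p-values adjusted to a false discovery rate per the file headers, was only searched for the members. Scan days and years were read from the deposited array records.

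Signals were changed to log2(signal + 16). Probe sets above their array's median on at least 3 arrays were tested, without controls, which left 32184, and all 13 members passed. limma 3.58.1 in R 4.3.3 fitted 1 mean per group to all 43 arrays, with a variance trend and 30 residual degrees of freedom. Tests were two-sided, with Benjamini-Hochberg adjustment over all tested probe sets in each of 15 comparisons and an F test, and a call at an adjusted p under 0.05. The script was tested on simulated data. A gene on a list is its probe set with the highest mean; all members are named, and no more than the 3 called genes of a list with the largest difference. At IL-2 8 h, Fasl, Eomes, Tbx21, Runx3, Prdm1, Srgn and Ctsc fall outside that rule and were chosen for their known roles after their values were seen, as were the Gzmn levels without IL-2. Tnfsf10 also falls outside it and is named because its signal lay near background. The members and lists were chosen with earlier results of these data known. The number of arrays limits the precision; detection calls and probe-level intensities were not used, so saturation was not examined.

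Alternatives changed the pseudocount, filter, scaling, variance model, threshold, arrays and blocks. The labels do not say that replicate numbers mark shared cultures, and correlations of same-numbered arrays ran from -0.36 to 0.47, so the numbers were not used as pairs.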

Additional observations from a re-analysis of the deposited data

Results flagged for a closer look

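One value stood apart from its group by Dixon's test at the 95% level, among 39 sets of values tested. Each set was 1 of the 13 probe sets in a group of 4 or 5 arrays, and chance alone marks about 1 set in 20. Sets of the same group come from the same arrays, so they are not independent. The Gzmd probe set 1420343_at had 47392.8 on replicate 1 of the starved cells, against 31544.4 to 35080.2 on the other 4 arrays, and the gap took 0.739 of the range. Without that array the difference of no IL-2 8 h from starved cells remained called.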

How the results depend on the processing

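In 17 alternatives each, the count of 0 granzyme and perforin probe sets called was kept at 9 of the 10 IL-2 times, in the F test and in IL-2 24 h against IL-2 12 h. Of these alternatives, the adjusted p under 0.01 and the 2-fold minimum could not raise a count of 0, since they only tighten the call. At IL-2 8 h against starved cells quantile normalisation called 1 (perforin), and leaving out 1 array at a time gave 0 to 1. The other counts depended on the processing, and the cause was not tested.

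For IL-2 4 h against no IL-2 4 h (8 called), the count was 0 with quantile normalisation, median centring, scan day as a random block, a 2-fold minimum or centring on bright probe sets, 1 at an adjusted p under 0.01, 2 with only the arrays compared, and 3 with no filter or no variance trend. Leaving out 1 array gave 0 to 11. For IL-2 8 h against no IL-2 8 h (4 called), it was 0 with a 2-fold minimum, 1 with median or bright centring, 2 with quantile normalisation, the random block or an adjusted p under 0.01, and 10 with array weights; leaving out 1 array gave 1 to 8. None of those 4 (both Gzmd probe sets, Gzmf and Gzmk) was called with quantile normalisation or either centring. What these called was perforin: 1451862_a_at, higher, with quantile normalisation and bright centring, and 1450335_at, lower, with quantile normalisation and median centring. For no IL-2 4 h against starved cells (1 called), it was 4 with median centring, 2 with the 75th percentile filter or array weights, and 0 with a pseudocount of 1, quantile normalisation, no filter, only the arrays compared, the replicate block, the random block, no trend, an adjusted p under 0.01, a 2-fold minimum, bright centring or without the 7 arrays of scan day 2; leaving out 1 array gave 0 to 5. For no IL-2 8 h against starved cells (6 called), it was 0 with quantile normalisation, a 2-fold minimum or bright centring, 1 with the random block, 2 with median centring, 3 with only the arrays compared or an adjusted p under 0.01, and 10 with array weights; leaving out 1 array gave 1 to 9.

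Directions turned for called values in few cases. In IL-2 4 h against no IL-2 4 h, Gzmd 1420343_at was 0.08 and Gzmg 0.05 with quantile normalisation, and Gzmd 0.05 with bright centring. In no IL-2 8 h against starved cells, Gzmc was -0.01 with quantile normalisation and -0.03 with bright centring, Srgn was 0 and -0.05, and Nkg7 was -0.08 with bright centring.

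Correlations of deviations from the group means had a median of 0.02 over 237 pairs of arrays with the same replicate number, against -0.01 over 614 pairs with different numbers. Within a scan day the medians were 0.13 over 77 pairs and 0.04 over 122. With the replicate block the count in no IL-2 4 h against starved cells was 0, since Gzmk lost its call, and so did Mcpt8 in no IL-2 8 h against starved cells. The block moved no other count of granzyme and perforin calls by over 1.5 times. Scan day as a fixed block could not be fitted for comparisons with arrays lacking IL-2. For Gzmm and Prf1 1450335_at, which lay near background, a lack of calls says little.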
